A study of Sus scrofa with 21 samples.

Results

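Endometrium from the places where pig conceptuses attach was compared between day 18 and day 13 of pregnancy. The arrays were those titled as endometrial attachment sites of pregnant sows, 3 from day 18 and 3 from day 13, so 6 of the 21 arrays of the series enter the comparison. All of these samples came from Large White sows inseminated at heat, with no transgene or further treatment in either group, and the sows of day 18 and of day 13 were different animals. The labels give 3 pregnant sows for each of days 13, 18 and 24 after insemination, and each gave tissue from an attachment site and from the inter-site, the stretch of uterus between conceptuses. A further 3 sows received inactivated sperm from the same boar and were sampled on day 13. The samples are pieces of endometrium of mixed cell types, and the labels name no sow for any library. The p-values therefore measure the spread between samples within the 7 groups of the series, whatever part of it is technical. All 21 arrays enter that spread as if independent. The comparison asks which genes differ in the uterine lining between these stages of implantation, the subject of the series by its title. The inter-sites of day 18 and day 13, with 3 arrays each, are used to set the attachment-site values beside the same days elsewhere in the uterus.

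The pig forms a non-invasive placenta. The conceptus elongates into a thread, comes to lie along the uterine surface and attaches to the luminal epithelium without breaking through it, and the apposed layers later fold into an epitheliochorial placenta. During attachment the pig trophoblast releases interferon gamma and interferon delta, a peculiarity of this species, together with oestrogens and interleukin 1 beta. Interferon gamma acts through a receptor that uses the kinase JAK1, and its known targets include the factor IRF1, guanylate-binding proteins, the immunoproteasome, MHC molecules and the chemokines CXCL9, CXCL10 and CXCL11, which draw T cells and NK cells that carry the receptor CXCR3. Osteopontin, encoded by SPP1, is an integrin ligand at the surface between conceptus and uterus. Uterine glands feed the conceptus with a secretion of proteins, sugars and lipids called histotroph.

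Levels below are log2 processed signals with the 75th percentile of the array set to 0, and differences are log2 levels of day 18 minus day 13 at attachment sites, with the standard error (SE) and the Benjamini-Hochberg adjusted p of limma over 30091 tested probes, n = 3 arrays a group. The 3 values in a row are those of replicates 1, 2 and 3. A probe level is compared only with the same probe on other arrays. On the 6 arrays 63.2% to 72.2% of 43603 probes were well above background, as the scanner software flags it. The libraries of a group were not alike. Across probes, the day 18 replicates correlated with each other at 0.946 to 0.957 and the day 13 replicates at 0.970 to 0.980, but day 18 replicate 3 correlated with the 3 day 13 arrays at 0.965 to 0.969, above its correlation with its own group. Day 18 replicates 1 and 2 correlated with the day 13 arrays at 0.920 to 0.941. At 37 probes that were on in some libraries and off in others, the 6 attachment-site libraries fell into 6 different sets, while day 18 attachment-site replicate 1 matched day 18 inter-site replicates 1 and 2 at 100% of these probes. Day 13 inter-site replicate 1 and day 24 inter-site replicate 3 stood apart from their groups, and both enter the shared estimate of the spread. At these probes day 24 inter-site replicate 3 matched non-pregnant replicate 3 at 97.3%, although the labels give different sows. Non-pregnant replicates 1 and 2 matched each other at 100% and replicate 3 at 37.8%. What lies behind these matches was not tested, so the non-pregnant values given below carry that doubt.

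At attachment sites 540 of 30091 probes passed the test (1.79%), 298 higher (0.99%) and 242 lower (0.804%) on day 18. The median difference over all tested probes was 0.01. A symbol was available for 127 of the 540 probes, which stand for 60 genes of 2018 tested (2.97%), 51 higher and 9 lower on day 18. In all 60 genes the 3 arrays of one day lay apart from the 3 of the other, which happened for 266 of all 2018 genes upward and 241 downward (10.9% and 12.5% of all probes). The number of calls depended on single libraries. It was 9 without day 18 replicate 1, 173 without day 18 replicate 2 and 3733 without day 18 replicate 3. It was 172, 11 and 43 without day 13 replicates 1, 2 and 3. Of the 60 genes, 1, 28 and 60 were still called without day 18 replicates 1, 2 and 3, and 23, 2 and 7 without day 13 replicates 1, 2 and 3. All 60 kept their direction in each of these fits, which leaving out 1 array could not have reversed, as the days did not overlap. Those tested also kept it in every other alternative run, but several of these could not have reversed it either. The 6 arrays fitted alone, other filters and leaving out 2 inter-site libraries compare the same 6 values a probe. Array weights only weight those values. With slide as a fixed block 12 probes and 3 genes (BHMT, CCL2 and OPTC) were called. Slide 3 alone held attachment-site arrays of both days. Day 18 replicates 2 and 3 were both on slide 2, which held no day 13 array. With a random block for the 14 sets of libraries that match at those 37 probes, called the on-off block below (correlation within a set estimated at 0.561), 193 probes and 25 of the 60 genes were called, with normexp background correction 111 and 23, and with no filter on dim probes 205 and 25. With the 6 arrays fitted alone 3 probes were called, 1 of them for BHMT.

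**Figure D1:**
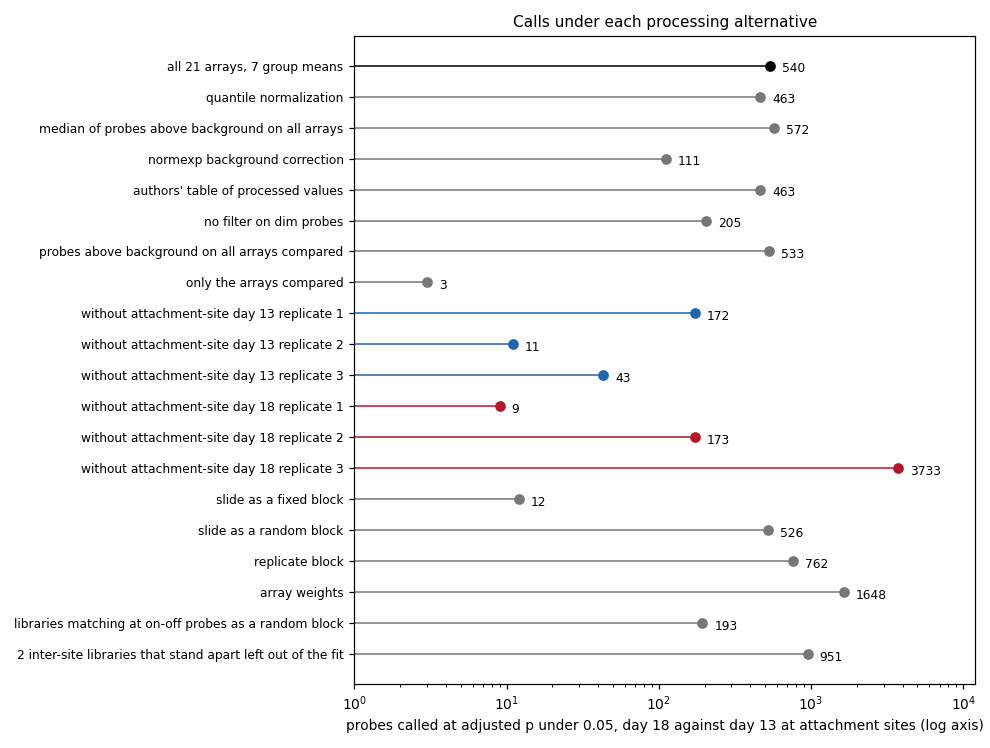
Number of probes called between day 18 and day 13 attachment sites (log axis) as analysed and under each alternative, including fits that leave out 1 library. The count of 540 fell to 9 without day 18 replicate 1 and reached 3733 without day 18 replicate 3.

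Chemokine genes that interferon gamma is known to induce were among the largest rises: CXCL9, CXCL10 and CXCL11 were all higher on day 18. CXCL9 had levels of 4.98, 2.68 and 2.69 on the day 18 arrays, against -1.80, -1.49 and -0.85 on the day 13 arrays. The difference was 4.83 (SE 1.19, adjusted p = 0.0475), or 28.4-fold, and the probe was brightest on day 18 replicate 1, with no overlap between the days. CXCL10 stood at 7.60, 5.10 and 6.68 on the day 18 arrays, against 2.86, 2.31 and 0.80 on the day 13 arrays. Its difference was 4.47 (SE 0.92, adjusted p = 0.0287), or 22.2-fold, and each day 18 array was above each day 13 array. CXCL11 was not well above background on any day 13 array. Its levels were -0.09, -1.64 and -2.14 on the day 18 arrays, against -5.96, -6.0 and -5.62 on the day 13 arrays, which makes day 18 at least 19.4-fold higher (adjusted p = 0.0195). The calls for CXCL10 and CXCL11 ended without day 18 replicate 1 (and without day 13 replicate 2 or 3), with adjusted p up to 0.154 and 0.11, while the differences stayed at 3.87 or more and 3.97 or more. With normexp background correction the CXCL11 difference was 1.65 (adjusted p = 0.329), under the bound given, so the bound depends on how background is treated. CXCL9 was no longer called when any library but day 18 replicate 3 was left out (adjusted p up to 0.219).

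Attractants of monocytes, CCL2 and CCL8, also rose. CCL2, which draws monocytes, had levels of 3.72, 2.11 and 2.27 on the day 18 arrays, against -0.49, -0.97 and 0.14 on the day 13 arrays. The difference of 3.14 (SE 0.49, adjusted p = 0.0115) was lost only without day 13 replicate 2 or day 18 replicate 1 among the 6 fits that left out a library (highest adjusted p 0.0845), and it was still called with slide as a fixed block. CCL8, a related monocyte attractant, had 0.60, -0.18 and 0.42 on the day 18 arrays, against -1.84, -2.80 and -2.51 on the day 13 arrays, a difference of 2.66 (SE 0.53, adjusted p = 0.0256). Its groups lay over 1 log2 unit apart. IL12RB1, a chain of the interleukin 12 receptor, rose by 2.12 (SE 0.52, adjusted p = 0.0469). TNFSF13B, the B-cell survival factor BAFF, rose by 1.86 (SE 0.39, adjusted p = 0.0307). CCL28, a chemokine made by mucosal epithelium that draws plasma cells, was the cytokine gene that fell. Its levels were -1.52, -0.67 and 0.59 on the day 18 arrays, against 1.57, 2.61 and 3.38 on the day 13 arrays, a difference of -3.05 (SE 0.75, adjusted p = 0.0492), and the day 18 array nearest to day 13 was replicate 3. Of 52 tested cytokines, chemokines and receptors 7 rose and 1 fell, against 51 higher and 9 lower of all 2018 genes. The median difference was 0.63, and the median over all genes was 0. Without day 18 replicate 1 none of these 8 genes was called, nor was any without day 13 replicate 2; without day 13 replicate 3 only 1 was. With the on-off block 4 of the 8 were called and with normexp 2. Members that did not pass included the interleukins IL1B with 1.93 (adjusted p = 0.108) and IL6 with 0.0 (adjusted p = 1), and LIF, a cytokine that prepares the uterus for implantation in mice, with -0.24 (adjusted p = 0.843).

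IFNG, the gene of interferon gamma, did not pass the test. It had levels of -0.93, 2.26 and -0.49 on the day 18 arrays, against -1.14, -3.70 and -5.68 on the day 13 arrays, a difference of 3.79 (SE 1.08, adjusted p = 0.0735). All day 18 arrays were above the day 13 arrays, but the values of each day spread over 3 log2 units, with replicate 2 the highest of day 18. IRF1, a transcription factor that interferon gamma induces, rose. It had levels of 4.63, 2.30 and 4.09 on the day 18 arrays, against 2.05, 1.18 and 1.0 on the day 13 arrays, a difference of 2.26 (SE 0.54, adjusted p = 0.0428), and day 18 replicate 2 was the nearest to day 13. JAK1, the receptor kinase, had a difference of 0.10 (adjusted p = 0.741).

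**Figure D2:**
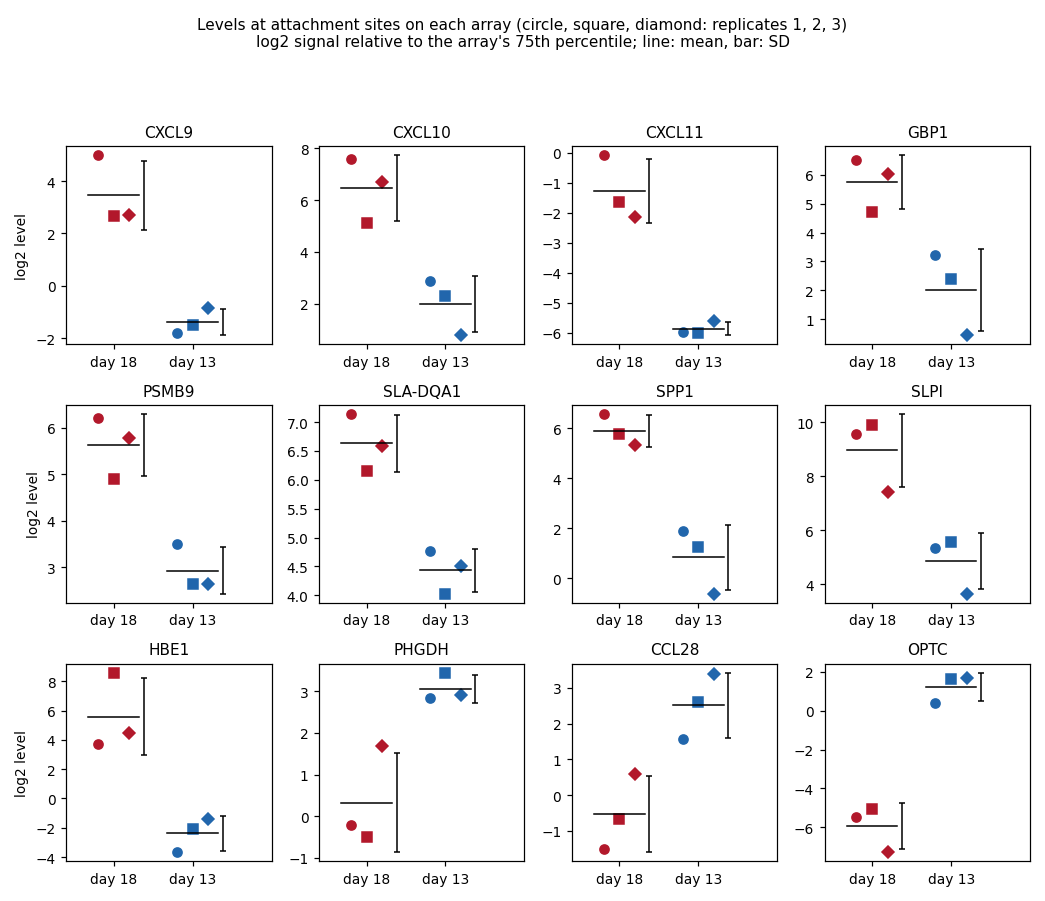
Levels (log2 signal, 75th percentile of each array at 0) of 12 genes on each attachment-site array, day 18 on the left and day 13 on the right, with circles, squares and diamonds for replicates 1, 2 and 3, a line at the mean and a bar for the SD. The days do not overlap in any of the 12, and day 18 replicate 1 is the highest array for CXCL9, CXCL10, CXCL11, GBP1, PSMB9 and SLA-DQA1.

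Among the effectors of the interferon response, the guanylate-binding proteins, GTPases that attack membranes around microbes, rose most. GBP1 had levels of 6.51, 4.72 and 6.01 on the day 18 arrays, against 3.22, 2.38 and 0.46 on the day 13 arrays. That is a difference of 3.73 (SE 0.83, adjusted p = 0.0349), 13.3-fold, with all day 18 arrays above day 13. GBP2 differed by 2.85 (SE 0.61, adjusted p = 0.0307). MX2, an antiviral GTPase, differed by 2.55 (SE 0.62, adjusted p = 0.0466). UBD, a ubiquitin-like protein that marks proteins for the proteasome, had 3.77, 1.89 and 3.21 on the day 18 arrays, against 0.90, 0.15 and -0.45 on the day 13 arrays and a difference of 2.76 (SE 0.52, adjusted p = 0.0237). Of 32 interferon response genes tested, 6 rose, among them GBP1, GBP2, UBD, MX2 and IRF1, and none fell, against 51 of all 2018 genes higher. In 28 of the 32 the difference was above 0, and the median was 1.05. In 16 the day 18 arrays were all above the day 13 arrays, against 266 of all 2018 genes. The inter-site median of the same genes was 0.83. None of the 6 calls held without day 18 replicate 1 or without day 13 replicate 2 or 3, 1 held with the on-off block and 4 with normexp. The antiviral enzyme gene OAS2 had 1.47 (adjusted p = 0.0857), and ISG12(A), an interferon-stimulated gene, had -0.02 (adjusted p = 0.979).

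Of the 28 lists, antigen presentation had the most members called. MHC class I shows peptides from inside the cell to CD8 T cells, and its light chain, beta 2 microglobulin, is encoded by B2M. B2M had levels of 9.01, 8.89 and 8.61 on the day 18 arrays, against 7.84, 7.17 and 7.31 on the day 13 arrays. The difference was 1.40 (SE 0.30, adjusted p = 0.0307), and the days did not overlap. SLA-3, a class I heavy chain, had 8.63, 7.85 and 8.16 on the day 18 arrays, against 6.40, 5.60 and 5.76 on the day 13 arrays, a difference of 2.30 (SE 0.34, adjusted p = 0.0101), and was above its level on every other array of the series; 3 of its 7 tested probes were called. Near-identical SLA genes may share probes, so the values of single SLA genes are uncertain. The immunoproteasome subunits, which cut the peptides that class I carries, rose together. PSMB9 had 6.21, 4.90 and 5.79 on the day 18 arrays, against 3.50, 2.64 and 2.64 on the day 13 arrays and a difference of 2.71 (SE 0.48, adjusted p = 0.0199). PSMB8 had 4.19, 2.93 and 2.57 on the day 18 arrays, against 1.01, 0.26 and 0.21 on the day 13 arrays and a difference of 2.73 (SE 0.66, adjusted p = 0.045). PSMB10 differed by 2.06 (SE 0.40, adjusted p = 0.0237). Each of these subunits was higher on every day 18 array than on any day 13 array. TAP1, which pumps the peptides into the endoplasmic reticulum, had a difference of 1.91 (adjusted p = 0.0592), with 1 of 2 probes called.

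MHC class II shows peptides from outside the cell to CD4 T cells. SLA-DQA1, its DQ alpha chain, had levels of 7.14, 6.16 and 6.59 on the day 18 arrays, against 4.76, 4.03 and 4.50 on the day 13 arrays. The difference was 2.20 (SE 0.36, adjusted p = 0.0129), 4.59-fold, and 6 of 7 probes were called. SLA-DRA, the DR alpha chain, had 7.51, 6.30 and 6.64 on the day 18 arrays, against 5.13, 4.21 and 4.57 on the day 13 arrays. It differed by 2.18 (SE 0.41, adjusted p = 0.0237), with 7 of 7 probes called. In both genes the lowest day 18 array, replicate 2, was over 1 log2 unit above the highest day 13 array, replicate 1. SLA-DQB1, the DQ beta chain, differed by 2.02 (SE 0.39, adjusted p = 0.0237). SLA-DMB, part of the DM molecule that loads the peptides, differed by 2.28 (SE 0.54, adjusted p = 0.0414). Of 26 antigen presentation genes tested 12 rose and none fell, against 51 of all 2018 genes higher. The median difference was 1.73, and the inter-site median was 0.72. The 12 were still called without day 18 replicate 3, and 8 without day 18 replicate 2, 7 without day 13 replicate 1, 2 without day 13 replicate 3 and 0 without day 18 replicate 1 or day 13 replicate 2. With the on-off block 8 were called and with normexp 7. Members of the same list that did not pass were SLA-5, a class I gene, with 1.60 (adjusted p = 0.0562), FCGRT, the receptor that carries immunoglobulin G across cells, with -0.19 (adjusted p = 0.674), and the lysosomal protease CTSV with -0.84 (adjusted p = 0.184).

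Some marker genes of leukocytes were also higher on day 18. CD2, an adhesion receptor of T and NK cells, had levels of 0.03, -2.07 and -1.13 on the day 18 arrays, against -3.71, -4.33 and -3.51 on the day 13 arrays. The difference was 2.79 (SE 0.55, adjusted p = 0.0255), and day 18 replicate 1 stood over 1 log2 unit above the other day 18 arrays. CD3D, a chain of the T-cell receptor complex, had -2.64, -4.0 and -4.16 on the day 18 arrays, against -5.94, -5.83 and -5.17 on the day 13 arrays, a difference of 2.04 (SE 0.49, adjusted p = 0.0436); on day 13 it was well above background on 2 of 3 arrays. Of 26 T and NK genes 3 rose, CD2 and CD3D among them, and none fell, against 51 of all 2018 genes higher. The median was 1.51, and 0.57 at inter-sites. None of the 3 was called without day 18 replicate 1 or day 13 replicate 2 or 3, or with normexp, under which the CD3D difference was 0.44, and 1 was called with the on-off block. CCL5, a chemokine of activated T cells, had 1.49 (adjusted p = 0.11), the cytotoxic protease gene GZMB had -0.17 (adjusted p = 0.788), and KIR2DL1, an NK receptor, had 0.31 (adjusted p = 0.716). The summed linear level of the T and NK genes was 31.6 to 48.8 on the day 18 arrays and 16.9 to 20.2 on the day 13 arrays. In bulk tissue more cells of a type and more RNA per cell cannot be told apart.

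Of 20 macrophage and myeloid genes 3 rose, against 51 of all 2018 genes higher. FCGR3A, an Fc receptor of macrophages and NK cells, had levels of 5.36, 4.94 and 4.49 on the day 18 arrays, against 3.14, 2.33 and 2.72 on the day 13 arrays, a difference of 2.20 (SE 0.50, adjusted p = 0.0369). LYZ, the antibacterial enzyme lysozyme, had 5.11, 5.62 and 3.65 on the day 18 arrays, against 2.16, 1.25 and 0.85 on the day 13 arrays, a difference of 3.37 (SE 0.75, adjusted p = 0.0356), 10.4-fold. Day 18 replicate 3 was the nearest to day 13 for both. CD180, a Toll-like receptor relative on B cells and macrophages, rose by 2.57 (SE 0.59, adjusted p = 0.04). These 3 calls were kept only when day 18 replicate 3 was the library left out (adjusted p up to 0.203 otherwise). With the on-off block 1 of them was called and with normexp 2. AIF1, a macrophage protein, had 2.51 (adjusted p = 0.0654), and GP91-PHOX, a subunit of the phagocyte oxidase, had 1.59 (adjusted p = 0.112). The median of the list was 1.73, against 0.32 at inter-sites. CD163, the haemoglobin scavenger receptor of tissue macrophages, lay the other way. It had -0.28, 0.99 and 0.22 on the day 18 arrays, against 3.24, 1.95 and 1.80 on the day 13 arrays, and its difference of -2.02 (SE 0.54, adjusted p = 0.0605) did not pass, although 1 of its 4 probes was called. CD80, a costimulator on antigen-presenting cells, was not well above background on day 13 and was at least 3.33-fold higher on day 18, with an adjusted p of 0.0682. CLEC7A, the fungal glucan receptor of myeloid cells, was likewise at least 7.53-fold higher with an adjusted p of 0.0506. The summed linear level of the myeloid list was 125 to 221 on day 18 and 59.2 to 77.8 on day 13.

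Of 5 B-cell and plasma-cell genes 1 rose, against 51 of all 2018 genes higher: CD72, an inhibitory coreceptor of B cells. It had levels of 0.38, -0.41 and -0.71 on the day 18 arrays, against -3.28, -3.99 and -2.27 on the day 13 arrays. The difference was 2.93 (SE 0.53, adjusted p = 0.0199), 7.62-fold, which was lost without day 13 replicate 2 or day 18 replicate 1 (adjusted p up to 0.115) and with normexp (1.74, adjusted p = 0.108). The 3 day 18 values lay above those of all 18 other arrays. The list's median was 0.20, and its summed level was 81.5 to 246 on day 18 and 129 to 384 on day 13, with overlap between the days. Among the 6 arrays, the T and NK, myeloid, antigen presentation and interferon lists were all highest on day 18 replicate 1. Their median deviations from the mean of 21 arrays on day 18 replicates 1, 2 and 3 were 1.79, 0.57 and 1.0 for antigen presentation, 1.99, 0.54 and 0.78 for T and NK cells, and 1.61, 0.60 and 0.41 for myeloid cells. On day 13 replicates 1, 2 and 3 they were -0.15, -0.68 and -0.61, then -0.24, -0.79 and -0.36, then -0.41, -0.79 and -0.64. On non-pregnant replicates 1, 2 and 3 they were -0.66, -0.71 and 0.60, then -0.73, -1.08 and 0.81, then -0.62, -0.82 and 1.01. Non-pregnant replicate 3 thus lay above day 18 replicate 2 in each of these lists. It also lay above day 18 replicate 3 for T and NK cells and for myeloid cells. The part of leukocyte number in the rise of the interferon and antigen presentation genes was not tested.

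Complement and related proteins of innate defence included further rises. C2, which forms the convertase of the classical pathway, had levels of 4.21, 2.58 and 3.17 on the day 18 arrays, against 1.19, 0.11 and 0.51 on the day 13 arrays, a difference of 2.71 (SE 0.55, adjusted p = 0.0287). C1S, the protease that cuts C2 and C4, differed by 1.44 (SE 0.32, adjusted p = 0.0348). SERPING1, the inhibitor that blocks that protease, differed by 1.35 (SE 0.32, adjusted p = 0.045). Enzyme and inhibitor thus both rose. These were the 3 of 29 complement and coagulation genes called, against 60 of all 2018 genes, with a list median of 0.42. None of the 3 was called without day 18 replicate 1 or day 13 replicate 2 or 3, or with the on-off block, and 1 was called with normexp. C3, the central component, had 0.52 (adjusted p = 0.486), C4A had 1.02 (adjusted p = 0.213), and C4BPA, which slows the classical convertase, had 0.91 (adjusted p = 0.49). CASP1, the protease that matures interleukin 1 beta, had 1.94, 0.94 and 1.34 on the day 18 arrays, against -0.99, -1.68 and -1.79 on the day 13 arrays, a difference of 2.89 (SE 0.64, adjusted p = 0.0349). It lay above all 18 other arrays on all 3 day 18 arrays. CASP1 was called in no fit that left out a library other than day 18 replicate 3 (adjusted p up to 0.169). Of 35 Toll-like receptor and antibacterial genes, LYZ, given above, was the 1 called, against 2.97% of all genes called, and the list median was 0.06.

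Of the secreted proteins, SPP1 and SLPI rose and OPTC fell. SPP1 had levels of 6.58, 5.78 and 5.32 on the day 18 arrays, against 1.88, 1.25 and -0.61 on the day 13 arrays. It averaged 5.89 ± 0.64 on day 18 and 0.84 ± 1.29 on day 13 (SD, n = 3 each), a difference of 5.05 (SE 0.72, adjusted p = 0.00974), 33.1-fold. All 4 probes were called, with differences of 4.99 to 5.29, and the lowest day 18 array was over 3 log2 units above the highest day 13 array. Among fits that left out a library the call was lost only without day 18 replicate 1 (adjusted p = 0.0692). At day 24 the level was 7.38, 8.08 and 8.33, and in non-pregnant sows of day 13 it was 0.92, 2.02 and 3.19. SLPI, an inhibitor of neutrophil elastase secreted by mucosal epithelium, had 9.56, 9.89 and 7.41 on the day 18 arrays, against 5.34, 5.57 and 3.66 on the day 13 arrays. That is a difference of 4.10 (SE 0.94, adjusted p = 0.0397), 17.1-fold, with 7 of 7 probes called and an inter-site difference of 0.50. Without day 18 replicate 3 the SLPI difference was still called, and without any other library it was not (adjusted p up to 0.176).

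OPTC, encoding the small leucine-rich proteoglycan opticin, fell. Its levels were -5.48, -5.05 and -7.28 on the day 18 arrays, against 0.40, 1.62 and 1.68 on the day 13 arrays, a difference of -7.17 (SE 1.17, adjusted p = 0.0129). Only 1 of 3 day 18 arrays was well above background, so the size of the difference rests on values near background, and with normexp it was -4.05. The call was lost without day 18 replicate 1 or day 13 replicate 2 or 3 (adjusted p up to 0.0855), and it was kept with slide as a fixed block. OPTC levels were -2.50, -2.62 and -2.66 on the day 18 inter-site arrays, against -5.36, -0.89 and 1.06 on the day 13 inter-site arrays. On the day 24 attachment-site arrays they were -6.36, -7.50 and -6.34, and in non-pregnant sows -7.15, -6.86 and -5.41. The 3 attachment-site arrays of day 13 were high, and of the inter-site arrays of that day replicate 1 was low. Of 44 secreted uterine proteins these 3 were called, against 60 of all 2018 genes, with a median of 0.17. Other members of this list that did not pass were STC1, stanniocalcin 1, with -4.36 (adjusted p = 0.138), FST, follistatin, with -1.65 (adjusted p = 0.372), DKK1, a WNT inhibitor, with -0.26 (adjusted p = 0.963), ACP5, the iron carrier uteroferrin, with 0.25 (adjusted p = 0.896), and RBP4, the retinol carrier, with 0.17 (adjusted p = 0.953).

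Attachment-site tissue can carry conceptus cells, and conceptus genes differed between libraries. HBE1, the embryonic epsilon globin of red cells made in the yolk sac, rose. Its levels were 3.74, 8.60 and 4.46 on the day 18 arrays, against -3.67, -2.12 and -1.38 on the day 13 arrays, a difference of 8.0 (SE 1.54, adjusted p = 0.0237). Without day 18 replicate 2 the difference was 6.50 and without day 18 replicate 1 it was 8.93. Day 18 replicate 2 was over 4 log2 units above the other day 18 arrays, and inter-site tissue had a difference of 4.30. PAG6, a pregnancy-associated glycoprotein secreted by trophoblast, had 1.78, 5.48 and 2.11 on the day 18 arrays, against 0.32, -1.42 and -4.08 on the day 13 arrays. Its difference of 4.86 (SE 2.09, adjusted p = 0.192) did not pass, and replicate 2 was again the highest of day 18. PPAG3, of the same family, was not well above background on day 13 and at least 6.31-fold higher on day 18 (adjusted p = 0.12). PLET1, named placenta-expressed transcript 1, had 2.34, 5.73 and 1.51 on the day 18 arrays, against 0.40, -0.65 and -2.88 on the day 13 arrays, a difference of 4.24 (adjusted p = 0.248). HBE1 was the 1 gene of 20 conceptus and trophoblast markers called, against 60 of all 2018 genes, and the list median was 0.30. The summed linear level of the list was 51.8 to 525 on day 18 and 26.6 to 41.7 on day 13. HBE1 alone, which is part of that sum, had 13.4 to 389 on day 18 and 0.0787 to 0.383 on day 13. The separation of the summed levels thus rests largely on this 1 gene. HBE1 was called without day 18 replicate 3 and not when any other library was left out (adjusted p up to 0.115). IFNA1, encoding interferon alpha, was not well above background on any of the 6 arrays. The part of conceptus RNA in the attachment-site differences was not tested.

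**Figure D3:**
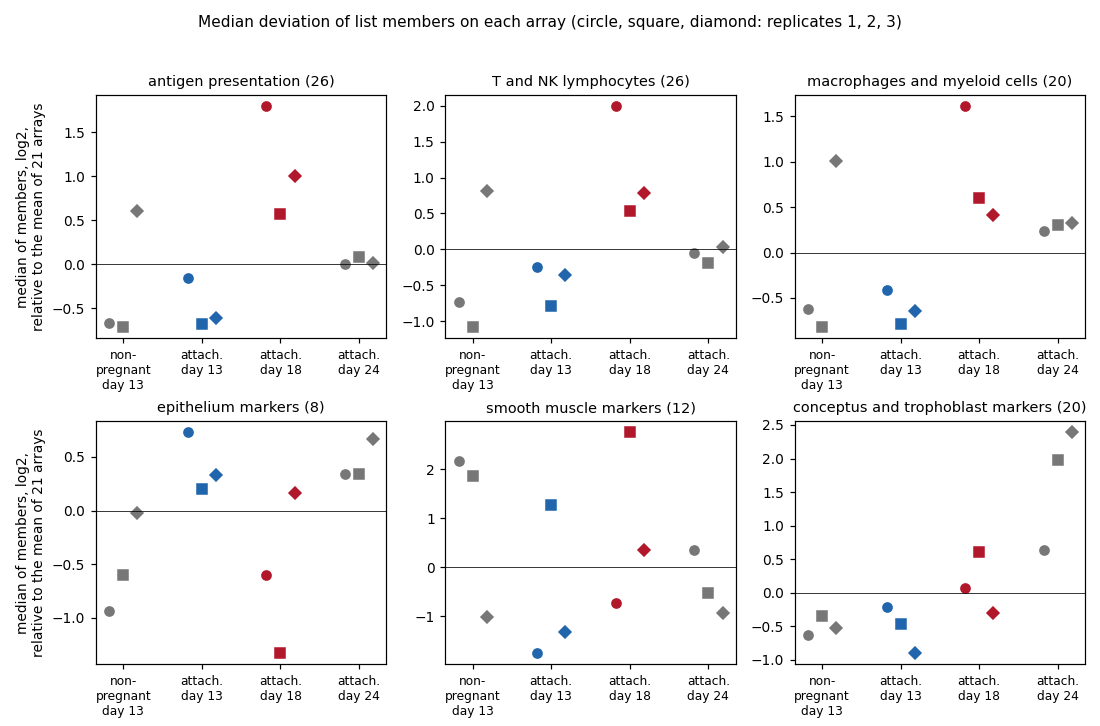
Median deviation of list members from their mean over 21 arrays (log2 units), by array, for antigen presentation, T and NK cells, macrophages, epithelium, smooth muscle and conceptus markers, in non-pregnant sows of day 13 and at attachment sites of days 13, 18 and 24. Antigen presentation was highest on day 18 replicate 1 (1.79), and the conceptus list was highest at day 24 (0.63, 1.98 and 2.39).

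Markers of the tissue's own cell types also differed between libraries. All 8 epithelium markers had negative differences, with a median of -1.10 and 0.05 at inter-sites, though none passed the test. The keratin KRT8 had levels of 4.29, 4.55 and 4.78 on the day 18 arrays, against 6.32, 5.59 and 6.20 on the day 13 arrays, a difference of -1.50 (SE 0.43, adjusted p = 0.0765), with 1 of 3 probes called and no overlap between days. EPCAM, an epithelial adhesion protein, had -0.79 (adjusted p = 0.129), and the glandular WFDC2 had -0.21 (adjusted p = 0.916). The summed level of the 8 was 120 to 154 on day 18 and 233 to 336 on day 13, so the days did not overlap. All 12 smooth muscle markers had positive differences, with a median of 1.29 and none called. Their summed levels overlapped, at 112 to 1980 on day 18 and 60.8 to 774 on day 13, and on both days replicate 2 was the highest. DES, the muscle filament desmin, had 4.49, 9.31 and 7.35 on the day 18 arrays, against 3.78, 8.24 and 3.95 on the day 13 arrays. The 6 stromal fibroblast markers had a median of 0.23 and the 9 endothelium markers 0.05. The part of these differences in cell makeup in the genes called was not tested.

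The genes that fell include enzymes of amino acid and small-molecule metabolism. BHMT makes methionine from homocysteine and betaine. It had levels of -7.83, -7.08 and -7.68 on the day 18 arrays, against -3.51, -3.77 and -3.48 on the day 13 arrays, and it was well above background on no day 18 array, so that day 18 was at least 3.62-fold lower (adjusted p = 0.00165). The call was kept whichever of the 6 libraries was left out (adjusted p up to 0.0151). It was lost only with normexp background correction (difference -0.67, adjusted p = 0.851), where the difference was under the bound given. Both the bound and the BHMT call thus depend on how background is treated. PHGDH, the first enzyme of serine synthesis, had -0.22, -0.50 and 1.68 on the day 18 arrays, against 2.83, 3.45 and 2.91 on the day 13 arrays. The difference was -2.74 (SE 0.58, adjusted p = 0.0307), and the nearest day 18 array was replicate 3. SAT1, which acetylates polyamines for breakdown and export, had 6.57, 6.36 and 7.81 on the day 18 arrays, against 8.11, 8.38 and 8.46 on the day 13 arrays and a difference of -1.40 (SE 0.34, adjusted p = 0.0455), but only 1 of its 6 probes was called. EPHX1, a detoxifying epoxide hydrolase, had 1.11, 0.98 and 2.88 on the day 18 arrays, against 3.0, 3.67 and 3.23 on the day 13 arrays and a difference of -1.65 (SE 0.41, adjusted p = 0.0494). CYP39A1, an oxysterol hydroxylase of bile acid synthesis, had a difference of -1.46 (SE 0.30, adjusted p = 0.0289). AHCYL1, a regulator of the inositol trisphosphate receptor, had -1.56, -1.60 and -1.62 on the day 18 arrays, against -0.70, 0.22 and 0.59 on the day 13 arrays, a difference of -1.63 (SE 0.33, adjusted p = 0.0287), with the 3 day 18 values almost equal. KLHDC3, a substrate receptor of a ubiquitin ligase, had a difference of -1.07 (SE 0.23, adjusted p = 0.0307). Apart from BHMT, none of these was called without day 18 replicate 1 or without day 13 replicate 2 or 3. Of 45 genes of lipid, amino acid and fuel metabolism 2 fell and none rose, against 9 of all 2018 genes lower, with a median of -0.10. Neither fall was called with the on-off block, and 1 was with normexp. The antioxidant enzyme GPX1 had -0.01 (adjusted p = 0.994) and IDH2, a mitochondrial dehydrogenase, -0.41 (adjusted p = 0.284). The epithelium markers, with their median of -1.10, moved the same way, and their part in these falls was not tested.

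Transport and junction genes of the epithelium showed bounds rather than calls. SCNN1A, the alpha subunit of the epithelial sodium channel, was not well above background on day 18 and was at least 3.79-fold lower there than on day 13 (adjusted p = 0.0596). ITGB6, an epithelial integrin chain, was at least 1.72-fold lower (adjusted p = 0.0567). REG3G, an antibacterial lectin, was at least 2.75-fold lower (adjusted p = 0.173). Of 29 adhesion, mucin and junction genes 10 had all day 18 arrays below day 13, against 241 of all 2018 genes. In 3 they were above, against 266 of all 2018 genes. The list median was -0.25 and none was called. The integrin chain ITGAV had -0.72 (adjusted p = 0.138) and ITGB3 had 0.26 (adjusted p = 0.524). Of 27 calcium, ion and water genes none was called and the median was -0.21. The sodium pump beta chain ATP1B1 had -1.15 (adjusted p = 0.118), and the calcium binder S100G had -2.21 (adjusted p = 0.273). The glucose transporter SLC5A1 had -2.10 (adjusted p = 0.157) and the fatty acid binder FABP5 1.82 (adjusted p = 0.0646), both of a list of 24 nutrient transporters with none called.

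Among further lists, no member was called for prostaglandins (15 tested, median 0.21), steroid receptors and metabolism (25, -0.08), angiogenesis (23, 0.20), extracellular matrix (27, 0.24), growth factors and WNT (39, -0.19), the cell cycle (18, 0.38) or cytosolic ribosomal proteins (30, -0.01). PTGS2, the inducible prostaglandin synthase, had -1.03 (adjusted p = 0.572), and PTGES, which makes prostaglandin E2, had 0.36 (adjusted p = 0.672). PGR, the progesterone receptor, had -0.06 (adjusted p = 0.938) and the oestrogen receptor ESR1 had -0.13 (adjusted p = 0.887). VEGFA, the vascular growth factor, had 0.19 (adjusted p = 0.868). The cycle genes TOP2A and CDK1 had 1.87 (adjusted p = 0.337) and 1.70 (adjusted p = 0.29) with inter-site differences of -1.32 and -1.38. In the list of 15 immediate early and heat shock genes the nuclear receptor gene NR4A3 rose by 2.75 (SE 0.67, adjusted p = 0.0475), with 2 of 4 probes called. It was the 1 member called, against 60 of all 2018 genes, and the list median was 0.10. STK26, a kinase, was not well above background on day 13 and at least 3.52-fold higher on day 18 (adjusted p = 0.0237). With normexp the STK26 difference was 0.51 (adjusted p = 0.964), under that bound. Among fits that left out a library, NR4A3 was called only without day 18 replicate 3 (adjusted p up to 0.219 otherwise). STK26 was called only without day 18 replicate 3 or day 13 replicate 3 (adjusted p up to 0.121 otherwise). NR4A3 was called neither with the on-off block nor with normexp.

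**Figure D4:**
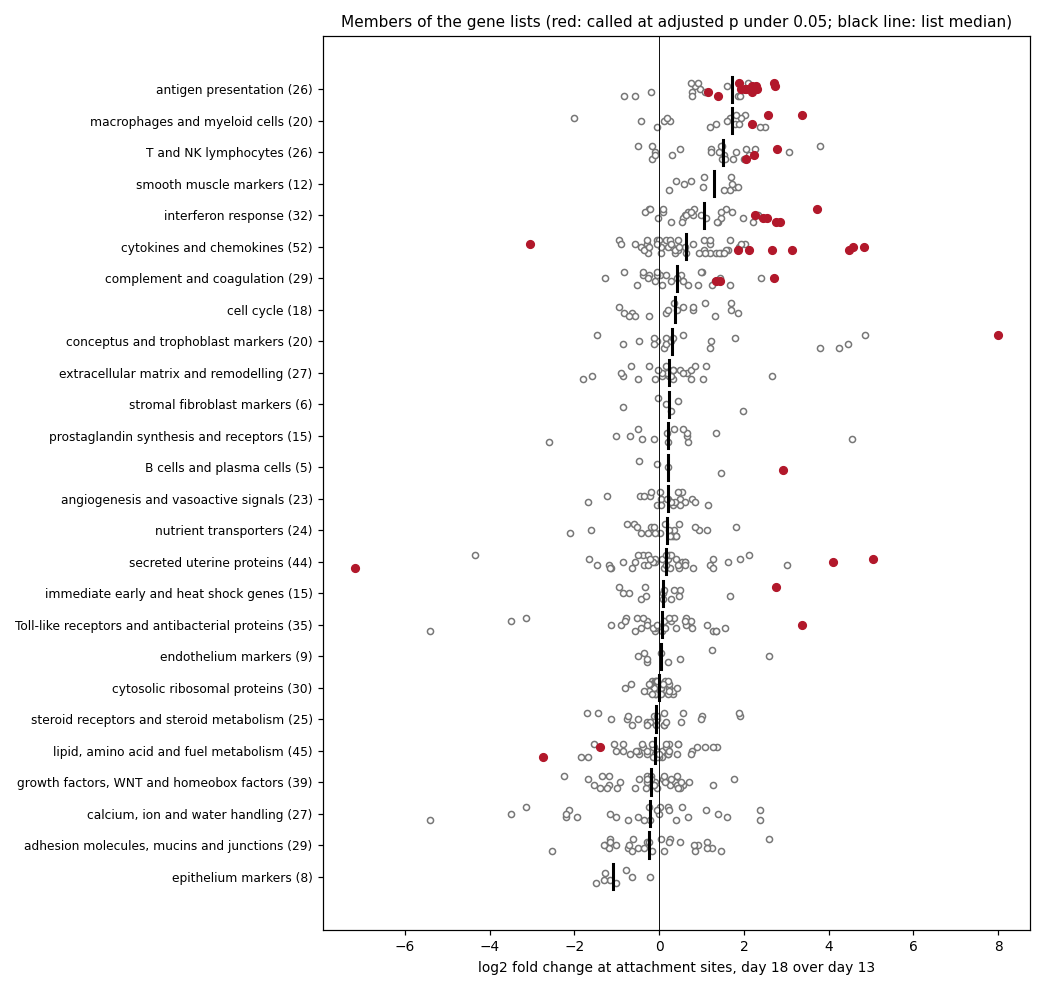
Log2 differences of day 18 minus day 13 at attachment sites for the tested members of 26 gene lists with at least 5 members, ordered by median (black line), with called members in red. Antigen presentation and macrophages have medians of 1.73 and epithelium markers of -1.10, and the smooth muscle list has a median of 1.29 with no called member.

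The remaining called genes were on no list or beyond the 8 described per list, and they are named here after their values were seen. In antigen presentation, CD74, the invariant chain of class II, had a difference of 1.88 (adjusted p = 0.0411), SLA-DMA, the partner of SLA-DMB, 1.92 (adjusted p = 0.0456), and PSME2, a proteasome activator subunit, 1.16 (adjusted p = 0.0404). Leukocyte genes on no list were ITGAL, the alpha chain of the integrin LFA-1, with 1.87 (adjusted p = 0.0344), ADGRE5, the adhesion receptor CD97, with 1.53 (adjusted p = 0.0211), and POU2F2, a transcription factor of B cells, with 1.61 (adjusted p = 0.0411). SERPINB9, which inhibits granzyme B, had 1.35 (adjusted p = 0.0389). CD47, a surface protein that restrains phagocytosis, had 0.94 (adjusted p = 0.0395). CYSLTR1, a leukotriene receptor, had 1.12 (adjusted p = 0.0351), and PDE4B, which breaks down cyclic AMP, had 2.04 (adjusted p = 0.0344). GLRX, glutaredoxin, had 2.20 (adjusted p = 0.0237), CMAH, which hydroxylates sialic acid, 1.15 (adjusted p = 0.0332), and FSCN1, an actin bundler, 0.93 (adjusted p = 0.0496). All of these were higher on day 18. None was called without day 18 replicate 1 or without day 13 replicate 2 or 3.

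Whether the change was particular to attachment sites was asked with the inter-site arrays. Day 18 against day 13 inter-sites called 2 probes (0.00665%), both lower on day 18, with 1654 at an unadjusted p under 0.05 (5.5%). One was BHMT, with an inter-site difference of -3.37 (adjusted p = 0.0267) and no day 18 inter-site array well above background, and the other carries no symbol here. The test of the difference between the site types called 0 probes (0%), with 2386 at an unadjusted p under 0.05 (7.93%) and a smallest adjusted p of 0.599. No probe was therefore shown to change more at one site type than at the other. Per the labels both site types came from the same sows, so the inter-site values are no independent repeat of the attachment-site change. SPP1 differed by 2.19 at inter-sites, GBP1 by 1.64, UBD by 2.05 and SLA-3 by 1.69. CXCL9 differed by 0.52 there, SLPI by 0.50, LYZ by 0.41 and CCL8 by 0.05. The first 4 genes had inter-site differences above 1.5 and the last 4 below 0.6, without a test of the contrast between them. They are examples from the called genes, set out by their inter-site values, so they do not show separate classes of genes. Of all called probes 94.3% had the same direction at inter-sites, against 56.3% of all probes. The median size of called differences was 1.85 at attachment sites, and their signed median at inter-sites was 0.56. The calls were made at attachment sites, which favours larger values there. Day 13 inter-site replicate 1 stood apart from its group, and without it and day 24 inter-site replicate 3 the inter-site comparison called 0 probes and the attachment-site comparison 951.

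**Figure D5:**
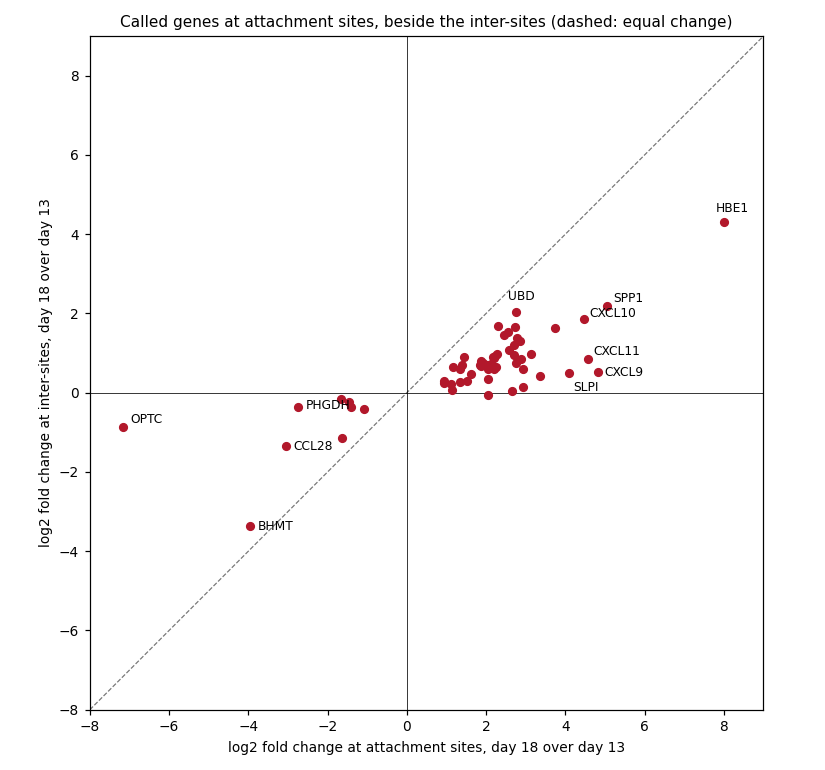
Log2 differences of day 18 minus day 13 for the 60 called genes, at attachment sites (horizontal axis) and at inter-sites (vertical axis), with a dashed line where both are equal. UBD (2.76 and 2.05) lies nearer to the line than CXCL9 (4.83 and 0.52), and the BHMT point rests on day 18 values below background.

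The other pregnant stages and the non-pregnant sows place the day 18 levels. For the antigen presentation, T and NK and myeloid medians given above, non-pregnant replicate 3 lay above day 18 replicate 2. In 12 of the 51 genes that rose, the 3 day 18 attachment-site arrays were above all 18 other arrays of the series, against 16 of all 2018 genes tested. All 51 already lay above the 3 day 13 attachment-site arrays, which are among the 18. An excess over all genes is thus built in by the call. Among these 12 were the chemokine genes CCL2, CCL8, CXCL9 and CXCL11, the receptors CD72 and FCGR3A, the presentation genes B2M, SLA-3 and SLA-DQA1, and CASP1 and TNFSF13B. AHCYL1 was the 1 of 9 fallen genes that was below all 18 other arrays, against 2 of all genes tested, with the same limit. At day 24 attachment sites CXCL9 had levels of -0.28, -2.35 and -1.22 and CXCL10 had 1.29, 1.23 and 0.83, both below every day 18 attachment-site array. PAG6 had 6.29, 7.93 and 8.17 at day 24, above every day 18 array. CXCL9 and CXCL10 were thus highest at day 18 among the 3 days, while SPP1 and PAG6 were highest at day 24. No test was run between day 24 and the other days.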

How the data were processed

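Endometrial RNA was hybridised to 21 one-colour (Cy3) Agilent arrays, 3 in each of 7 groups, from 0.5 µg of total RNA extracted with Trizol, per the labels' protocols. The deposited scanner files hold spot intensity, background-subtracted and detrended within each array by Agilent Feature Extraction (10.7.3.1 per the file headers, 10.7 per the submitters' processing notes), with flags for background and saturation. The deposited flags were used as 0 or 1 marks, which are other values than intensity per the file headers. The authors' deposited table of log2 values, with a median of 5.85 in each column, served as an alternative: 19 of 21 columns correlated best with their own array, and day 24 inter-site replicates 2 and 3 did not. The sources used here do not give its software.

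Control spots and 198 outlier spots were left out, 0 spots were saturated, and the 5 spots of each of 50 repeated probes were averaged, giving 43603 probes. Each array was scaled by subtracting its 75th percentile on the log2 scale. Tests covered the 30091 probes that were well above background throughout some group of 3 arrays, and 13512 probes were not tested. On the 21 arrays 62.3% to 77.1% of probes were well above background, the 75th percentile was 356 to 859, and the ratio of median signal to median background lay between 2.35 and 3.92. Precision is limited by the number of arrays. Names came from the pig RefSeq gene table of assembly Sscrofa11.1 through the accession without version: 5461 of 5779 probes with an accession matched, naming 2389 genes, 2018 of them tested. The probe brightest over all arrays stood for its gene.

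limma 3.58.1 (R 4.3.3) fitted 1 mean for each of the 7 groups to the 21 arrays by lmFit and eBayes, with 14 residual degrees of freedom and 2.71 from the prior. Probes with a Benjamini-Hochberg adjusted p under 0.05 were called. The fit was first tested on simulated data with independent noise on each array, so that test does not cover libraries that correlate within a set. A bound (at least N-fold) sets the bright group's mean against, per array, the dim probe's value or, where higher, the dimmest signal that was well above background. Summed marker levels are sums of linear values relative to the 75th percentile. On-off probes have values in a high and a low set over 2 log2 units apart, each of at least 4 arrays, with group explaining under 0.5 of the variation.

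The members and the 28 lists were chosen with earlier results of these data known. Named were the 15 largest rises and falls among called genes without overlap, up to 8 called and 3 bright uncalled members a list, up to 8 bounds in each direction, and a fixed list of implantation genes. CD163, PAG6, PLET1 and the called genes said to be so in the text were named after their values were seen. Some genes that meet the rule are counted but not reported here by name. Replicate numbers do not pair arrays of different days, as the sows differ. Same-numbered arrays' deviations correlated at 0.23, 0.44 and 0.07, and those of differently numbered arrays at -0.42 to 0.15. For each day 18 replicate the same-numbered value was the highest, and what lies behind this was not tested. Alternatives were quantile and median scaling, normexp with offset 50 (on the median signal, as the mean signal was not used here), the authors' table, array weights, filters, left-out libraries, and slide, replicate and on-off blocks. Values within slide 3, the on-off block and the fit without 2 inter-site libraries were chosen after seeing the data.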

Additional observations from a re-analysis of the deposited data

How the results depend on the processing

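Of the 60 genes called, 0 reversed under any alternative, though with 1 library left out none could, as their days did not overlap. Nor could any with only the arrays compared, other filters, array weights or without the 2 inter-site libraries. The 540 probes called at attachment sites became 111 with normexp, 205 with no filter on dim probes, 3 with only the arrays compared, 12 with slide as a fixed block, 1648 with array weights, 193 with the on-off sets as a random block (estimated correlation 0.561) and 951 without the 2 inter-site libraries that stood apart. Leaving out 1 library gave 9 to 3733. Quantile scaling and the authors' table (463 each), median scaling (572), probes above background on all arrays compared (533) and slide as a random block (526) stayed within 1.5 times, as did the replicate block (762). Quantile scaling and the authors' table also kept the same number of the 60 genes (45), so they may not be separate checks. Of the 60 genes, 23 were still called with normexp, 25 with no filter, 25 with the on-off block, 3 with slide as a fixed block, 1 with only the arrays compared and 59 with the replicate block. The cause of these differences was not tested.

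The 2 inter-site calls became 0 with normexp, probes above background on all arrays compared, only the arrays compared, slide as a fixed block, the replicate block, the on-off block and without the 2 inter-site libraries. They became 10 with array weights and 0 to 6 without 1 library. The difference between site types called 0 under the alternatives run, except 1 without day 18 attachment-site replicate 1 (range 0 to 1).

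The list medians that moved by more than the replicate SD are given. With normexp they were 0.93 for T and NK cells, 1.04 for myeloid cells, 0.28 for cytokines, -0.03 for nutrient transporters, 0.25 for the cell cycle and 0.18 for complement. With probes above background on all arrays compared they were 0.01 for nutrient transporters and 0.28 for the cell cycle. With slide as a fixed block they were 0.39 for nutrient transporters, -0.09 for the cell cycle, -0.17 for lipid, amino acid and fuel metabolism and -0.22 for ribosomal proteins, and with the on-off block 1 for B cells. Within slide 3, from 1 array a day, they were 2.16 for interferon response, 2.50 for antigen presentation, 2.19 for T and NK cells, 2.40 for myeloid cells, 1.23 for cytokines, 0.31 for adhesion, 0.42 for nutrient transporters, 0.19 for calcium and ion handling, 0.87 for angiogenesis, 0.23 for the cell cycle, 0.07 for growth factors, 0.60 for Toll-like receptors, -0.19 for metabolism, -0.36 for ribosomal proteins, 0.80 for conceptus markers and 1.19 for endothelium; within their SD, B cells had -0.26 and smooth muscle 0.48. Without 1 library they were -0.45 to 0.02 for adhesion, -0.43 to -0.07 for calcium and ion handling, 0.23 to 0.60 for complement, -0.49 to 1.32 for B cells, -0.07 to 0.34 for nutrient transporters, 0.27 to 0.45 for the cell cycle, -0.18 to 0.00 for metabolism, -0.17 to 0.10 for steroid genes and -0.09 to 0.15 for immediate early genes.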
